A study of Mus musculus with 12 samples.

Results

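The messenger RNA of 10 genes of the oligodendrocyte lineage was followed through the dorsal hippocampus of 12 mice. The genes are the lineage transcription factors Olig1, Olig2, Sox10 and Nkx2-2, the myelination factors Myrf and Nkx6-2, the precursor markers Pdgfra and Cspg4, and the markers of committed precursors Gpr17 and Bmp4. They were chosen by symbol from the 24985 genes of the raw count table, and all 10 were among the 14742 genes abundant enough to be tested. The question was whether the precursor stage follows or opposes the mature myelin genes when pathological tau and dietary acetate are varied. For that, 18 mature myelin genes were used as the comparison, among them Mbp, Mag, Mog and Cnp.

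The mice were wild-type C57Bl6/J animals that received a single injection into the right dorsal hippocampus at 6 months of age. They were given either PBS or 1 µg of AD tau, an aggregated tau extract from the frontal cortex of people with Alzheimer's disease. They ate either a control diet or a diet with 5% Na-acetate, and tissue was taken 6 months after injection, after a memory recall test that every group underwent. This gave 4 groups of 3 mice, called PBS-control, tau-control, PBS-acetate and tau-acetate, where the second word is the diet. The injection reached 1 hemisphere, and the seed is a human brain extract rather than a single purified species. Libraries held 12983233 to 20218340 reads on genes, which were expressed as CPM (read counts scaled to a common library size) after TMM scaling. All 12 mice were labelled male, but Xist, the transcript of the inactive X chromosome, had 13583 to 25991 reads in every library and 8 Y-linked genes had 0 reads in total, so the libraries go against that label in all groups alike.

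Oligodendrocytes arise from precursor cells that carry the PDGF receptor Pdgfra and the proteoglycan Cspg4 (NG2) on their surface and persist in the adult brain. On commitment these receptors are lost and Gpr17 appears for a short time, before Myrf switches on the genes of the myelin sheath. Olig1, Olig2, Sox10 and Nkx2-2 act in the lineage, with Olig2 and Sox10 present from the precursor to the mature cell, so a rise or fall in them does not name a stage by itself. In RNA from whole tissue, fewer cells of a type and less RNA per cell cannot be told apart.

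The mature myelin genes set the reference for each comparison. Their score, the mean log2 CPM over the 18 genes after each gene was centred on its mean, was 0.55, 0.26 and 0.18 in the PBS-control mice. It was -0.01, -0.27 and -0.44 in PBS-acetate, -0.36, -0.40 and -0.09 in tau-control, and 0.48, 0.30 and -0.20 in tau-acetate mice. Thus the PBS-control mice were above every PBS-acetate and tau-control mouse, and 1 tau-acetate mouse, replicate 3, was well below the other 2 of its group. That mouse was also the lowest of its group for all 6 transcription factors. It stood apart in markers of the choroid plexus, a tissue beside the hippocampus, with Ttr at 399 CPM against 40.0 and 36.7 in the other 2 mice of its group, and 5 such markers summing to 467 CPM against 76.5 and 77.9. The part of this tissue in the results that change without that mouse was not tested.

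Per length of exon, Olig1 was the most abundant of the 10 genes, at 53.3 CPM per kb on average over the 4 groups. Sox10 followed at 18.4, Olig2 at 11.5, Myrf at 10.2, Nkx6-2 at 7.15, Gpr17 at 5.86 and Pdgfra at 4.95 CPM per kb. The 3 genes at the low end were Cspg4 at 1.83, Nkx2-2 at 1.54 and Bmp4 at 0.555 CPM per kb. The ranges of the group means overlapped for Olig2 (9.76 to 13.4) and Myrf (8.18 to 12.3), and for Myrf and Nkx6-2 (5.42 to 8.78). Within each of the 4 groups, however, the mean of Olig2 was above Myrf and that of Myrf above Nkx6-2. For some other neighbours the order was not the same in all groups. Nkx6-2 was under Gpr17 in tau-control (5.42 against 6.30). Gpr17 was under Pdgfra in PBS-acetate (4.93 against 5.15), and Cspg4 under Nkx2-2 in PBS-control (1.55 against 1.96).

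**Figure D1:**
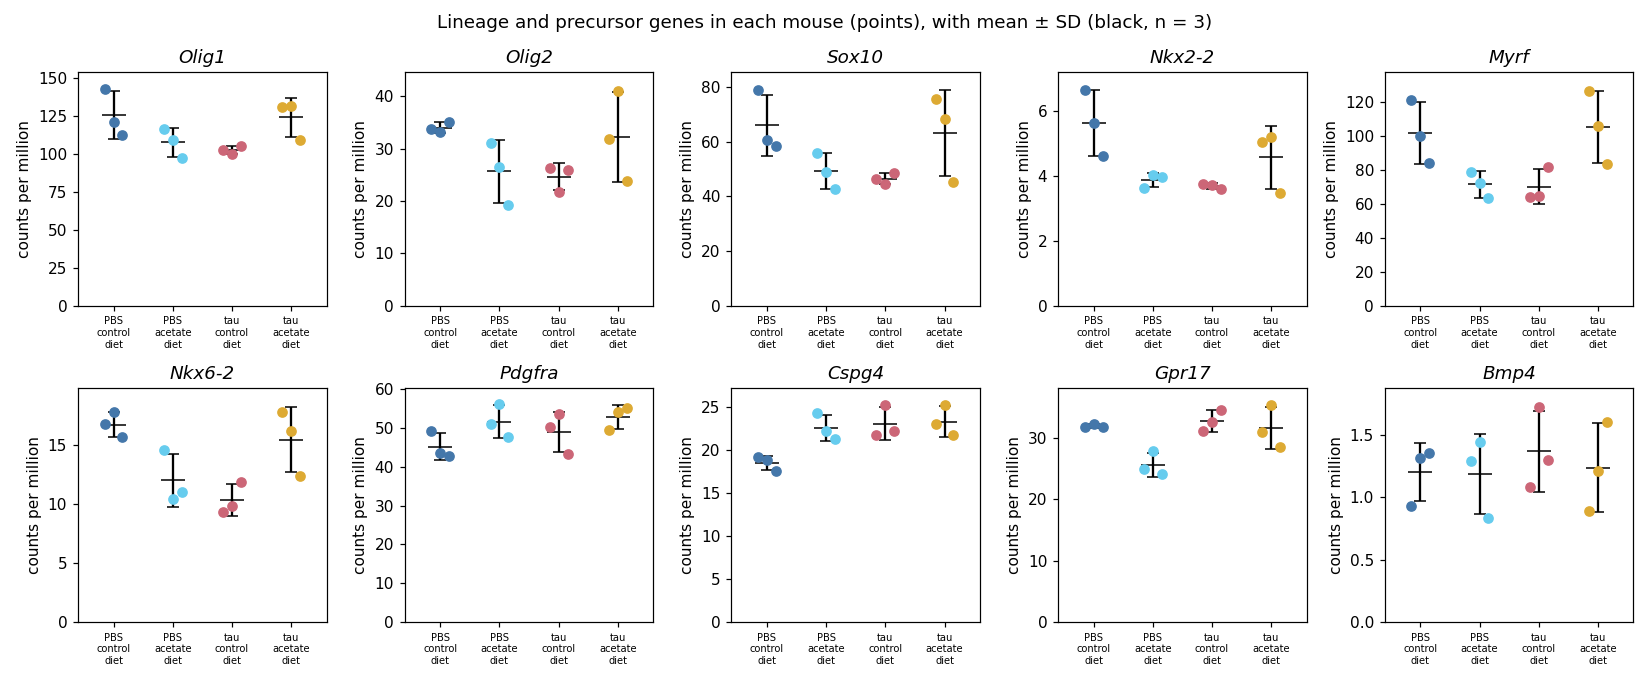
CPM of the 10 genes in each mouse (points, 3 per group) with the mean and SD in black, each axis starting at 0. The 6 transcription factors (from Olig1 to Nkx6-2) had lower means in PBS-acetate and tau-control than in PBS-control mice, whereas the mean of Cspg4 was higher in both and the group means of Pdgfra lay between 45.2 and 52.8 CPM.

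Sequences upstream of the start site are shown for the gene whose diet effect differed with injection (Nkx6-2) and for the 2 precursor markers, so that these can be set side by side. They are RefSeq promoters on GRCm38.p6, read 5′ to 3′ on the strand of the gene and ending at the RefSeq start site, except that Cspg4 stops after 179 bases, before the first base of the GENCODE gene. Capitals mark ACAAT, the core of SOX protein motifs, on either strand (ATTGT on the other).
Nkx6-2 (chr7:139582798-139583047, minus strand): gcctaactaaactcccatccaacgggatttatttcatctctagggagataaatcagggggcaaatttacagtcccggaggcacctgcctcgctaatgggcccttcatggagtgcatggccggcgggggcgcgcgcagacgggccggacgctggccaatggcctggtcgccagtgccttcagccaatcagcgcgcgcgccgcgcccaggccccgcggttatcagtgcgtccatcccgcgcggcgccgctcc
Pdgfra (chr5:75152001-75152250, plus strand): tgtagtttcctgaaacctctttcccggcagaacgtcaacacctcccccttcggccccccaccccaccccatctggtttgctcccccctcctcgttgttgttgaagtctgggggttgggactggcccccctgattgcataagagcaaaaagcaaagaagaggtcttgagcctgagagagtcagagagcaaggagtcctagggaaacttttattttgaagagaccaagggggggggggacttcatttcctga
Cspg4 (chr9:56864854-56865032, plus strand): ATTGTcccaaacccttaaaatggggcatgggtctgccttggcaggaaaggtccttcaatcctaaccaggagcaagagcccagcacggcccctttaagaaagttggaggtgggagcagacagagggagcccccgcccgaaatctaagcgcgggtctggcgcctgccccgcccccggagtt

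The table of promoters matched 6 of the 10 genes (Olig2, Nkx2-2, Nkx6-2, Pdgfra, Cspg4 and Bmp4) and not Olig1, Sox10, Myrf and Gpr17. Over the 250 bases upstream, G and C made up 65.2% of the letters for Nkx6-2, 54.4% for Pdgfra and 60.4% for Cspg4, against a median of 52.4% over 32851 promoters. ACAAT was present on either strand for Olig2, Nkx2-2 and Cspg4 and in 27.7% of all promoters. CAGCTG, an E-box that basic helix-loop-helix proteins such as Olig2 can bind, was in 0 of the 6 and in 13.0% of all. CTGGNAC, a motif of Myrf, was found for Bmp4 and in 16.1% of all. The GC box GGGCGG was found for Olig2, Nkx2-2, Cspg4 and Bmp4 (32.7% of all), and TATAAA for Olig2 (12.4% of all). The matches were sought in all 250 bases, which for Nkx2-2 lay inside the GENCODE gene and for Olig2 and Cspg4 ended inside it. These matches describe the letters only.

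Sox10, a transcription factor present throughout the lineage (chr15:79154908-79165240, minus strand), was at 78.8, 60.7 and 58.4 CPM in PBS-control mice, 55.9, 49.0 and 42.7 in PBS-acetate, 46.2, 44.6 and 48.7 in tau-control, and 75.7, 68.1 and 45.3 in tau-acetate. Every PBS-control mouse was above every PBS-acetate and tau-control mouse, and the tau-acetate group spanned both. Olig1 (chr16:91269772-91271933, plus strand), a helix-loop-helix factor of the lineage, was at 143, 121 and 113 CPM in PBS-control, 117, 109 and 97.6 in PBS-acetate, 102, 100.5 and 106 in tau-control, and 131, 132 and 109 in tau-acetate. Here the PBS-control and PBS-acetate groups overlapped, while all tau-control mice lay under all PBS-control and all tau-acetate mice.

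Olig2 (chr16:91225457-91228677, plus strand) lies 41094 bases before Olig1 on the same strand and is required for the lineage to form. It was at 33.7, 33.2 and 35.1 CPM in PBS-control, 31.2, 26.6 and 19.2 in PBS-acetate, 26.4, 21.8 and 25.9 in tau-control, and 31.9, 41.1 and 23.8 in tau-acetate. The PBS-control values were close together and above both middle groups, and the tau-acetate mice ranged from 23.8 to 41.1. Nkx2-2 (chr2:147177546-147194243, minus strand), a homeobox factor that promotes differentiation, was at 6.64, 5.64 and 4.60 CPM in PBS-control, 3.62, 4.02 and 3.96 in PBS-acetate, 3.75, 3.71 and 3.59 in tau-control, and 5.05, 5.20 and 3.47 in tau-acetate. It was the least abundant of the 6 factors, with 47 to 114 reads per mouse.

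Myrf (chr19:10208272-10240748, minus strand), which turns on the myelin genes in maturing cells, was at 121, 99.8 and 84.0 CPM in PBS-control, 78.6, 72.3 and 63.1 in PBS-acetate, 63.7, 64.7 and 81.8 in tau-control, and 126, 106 and 83.5 in tau-acetate. All tau-acetate mice were above all PBS-acetate and all tau-control mice, although replicate 3 exceeded the highest tau-control mouse by a small margin. Nkx6-2 (chr7:139579376-139582797, minus strand), a homeobox factor of differentiating oligodendrocytes, was at 16.8, 17.8 and 15.6 CPM in PBS-control, 14.6, 10.4 and 11.1 in PBS-acetate, 9.30, 9.82 and 11.9 in tau-control, and 17.8, 16.2 and 12.4 in tau-acetate. Again the 3 tau-control mice were under all PBS-control and all tau-acetate mice, with replicate 3 of tau-acetate nearest to them.

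Of the precursor markers, Pdgfra (chr5:75152292-75198215, plus strand) was at 49.2, 43.6 and 42.7 CPM in PBS-control, 51.1, 56.1 and 47.6 in PBS-acetate, 50.1, 53.5 and 43.3 in tau-control, and 49.4, 54.0 and 55.1 in tau-acetate. Only the PBS-control and tau-acetate groups did not overlap. Cspg4 (chr9:56865033-56899870, plus strand) was at 19.2, 18.8 and 17.5 CPM in PBS-control, 24.3, 22.2 and 21.3 in PBS-acetate, 21.8, 25.3 and 22.2 in tau-control, and 23.0, 25.3 and 21.7 in tau-acetate. The PBS-control mice were under every mouse of the other 3 groups, which overlapped each other.

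Gpr17 (chr18:31942997-31949636, minus strand), a receptor of committed precursors that is lost as they mature, was at 31.7, 32.2 and 31.8 CPM in PBS-control, 24.9, 27.8 and 24.1 in PBS-acetate, 31.0, 32.6 and 34.5 in tau-control, and 30.9, 35.3 and 28.5 in tau-acetate. Only the PBS-acetate group stood apart, under all other mice. Bmp4 (chr14:46383520-46390669, minus strand), a secreted ligand, had 13 to 28 reads per mouse and ranged from 0.831 to 1.72 CPM with all groups overlapping, so small differences were not detectable at this depth.

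When tau-control was compared with PBS-control mice, the 6 transcription factors were lower and the 4 precursor genes were not. The log2 fold changes were -0.70 for Nkx6-2 (SE 0.15, adjusted p = 0.231), -0.61 for Nkx2-2 (adjusted p = 0.351), -0.54 for Myrf (0.404), -0.51 for Sox10 (0.437), -0.46 for Olig2 (0.508) and -0.29 for Olig1 (0.356), by edgeR's quasi-likelihood test. None of the 10 passed the threshold of an adjusted p below 0.1, which 0.0136% of all genes passed. At an unadjusted p below 0.05 the 6 factors were lower and Cspg4 was higher, against 9.65% of all genes in either direction. The same 7 genes had groups that did not overlap, compared with 13.5% of all genes. Cspg4 had a log2 fold change of 0.32 (SE 0.09, adjusted p = 0.303), Pdgfra of 0.12 (95% interval -0.06 to 0.30), Gpr17 of 0.04 (-0.14 to 0.21) and Bmp4 of 0.21 (-0.51 to 0.93). The 18 mature myelin genes had a median of -0.61, with 18 of 18 below 0 at an unadjusted p below 0.05 and 0 past the threshold in edgeR, beside a median near 0.00 for all genes. The interval for Pdgfra thus left out a change of the size of the myelin median. Of 8 meningeal fibroblast markers, 7 were above 0 and 1 below (median 0.42), with 0 past the threshold. At an unadjusted p below 0.05, 3 were higher and 1 was lower. The part of these cells in the value for Pdgfra was not tested. Nkx6-2 passed the threshold when replicate 3 of tau-acetate was left out of the shared fit, and it passed in DESeq2. In these runs the calls over all genes rose from 2 to 16 and 86. Region markers also differed in this comparison, though none passed the threshold: 5 of 5 thalamus markers were below 0 (median -1.34, sums of 98.9 to 275 CPM against 67.7 to 104) and 5 of 5 CA1 markers above 0 (median 0.49, 3 at an unadjusted p below 0.05). Their part in the result was not tested.

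Among PBS-injected mice, acetate against control diet gave the calls. Gpr17 fell by 0.31 on the log2 scale (SE 0.09, adjusted p = 0.0483) and Nkx6-2 fell by 0.48 (SE 0.14, adjusted p = 0.0667), whereas Cspg4 rose by 0.29 (SE 0.09, adjusted p = 0.0767). These 3 of 10 stand beside 8.84% of all genes, 1303 in number, a count that itself fell to 15 without PBS-acetate replicate 2, 248 without PBS-control replicate 3, 315 without PBS-acetate replicate 1 and 727 without PBS-control replicate 1. The remaining factors had log2 fold changes of -0.54 (Nkx2-2, adjusted p = 0.105), -0.51 (Myrf, 0.156), -0.43 (Sox10, 0.238), -0.41 (Olig2, 0.287) and -0.22 (Olig1, 0.183). Pdgfra was at 0.19 (95% interval 0.02 to 0.37, adjusted p = 0.201) and Bmp4 at 0.01 (-0.70 to 0.72). Of the 10 genes, 7 had groups that did not overlap, against 26.3% of all genes, and 8 (all but Olig2 and Bmp4) had an unadjusted p below 0.05, against 20.8%. For mature myelin 18 of 18 genes were below 0, with a median of -0.55. Of these, 14 had an unadjusted p below 0.05 and 7 passed the threshold. Each of the 3 calls rested on the full set of mice: each was lost when any of 5 of the 6 PBS-injected mice was left out, with adjusted p-values up to 0.158 for Gpr17, 0.296 for Nkx6-2 and 0.246 for Cspg4. The mouse whose loss kept the call was PBS-control replicate 2 for Gpr17, PBS-acetate replicate 1 for Nkx6-2 and PBS-acetate replicate 3 for Cspg4. With tau-acetate replicate 3 left out, 6 of the 10 were called (Sox10, Nkx2-2, Myrf, Nkx6-2, Cspg4 and Gpr17), while 1286 genes were called in all. DESeq2 called Myrf (adjusted p = 0.0829), Nkx6-2 and Gpr17 and gave Cspg4 an adjusted p of 0.103, while 1371 genes were called in all.

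Markers of other cells and regions moved with this diet comparison. The summed level of 5 thalamus markers was 98.9 to 275 CPM in PBS-control mice and 77.8 to 90.0 in PBS-acetate, 5 CA1 markers summed to 452 to 589 and 718 to 946 CPM, and 4 CA3 markers to 135 to 151 and 69.7 to 110 CPM. All 5 thalamus genes were below 0 and 1 passed the threshold (Tnnt1). All 5 CA1 genes were above 0 and 4 passed (among them Pou3f1 and Fibcd1). All 4 CA3 genes were below 0 and 3 passed (Iyd, Nectin3 and Grik4). Among other marker genes the astrocyte gene Slc1a3 rose, and Aqp4 of astrocytes, Folr1 of choroid plexus and the neuronal Snap25 and Slc17a7 fell. Their lists were mixed: 2 of 5 astrocyte, 4 of 5 choroid plexus and 3 of 5 neuron markers were below 0, and the rest above. The myelin content of a slice varies between regions, and the part of these markers in the result was not tested. Cspg4 is also made by mural cells of blood vessels, and 8 mural markers summed to 165 to 185 CPM in PBS-control, 184 to 199 in PBS-acetate, 185 to 229 in tau-control and 173 to 206 in tau-acetate mice. Of the 8, Notch3 rose in PBS-acetate mice (log2 0.39, adjusted p = 0.0880), 8 of 8 were above 0 in tau-control against PBS-control (median 0.22, 0 past the threshold) and none was at 0 counts in all mice. Their part in the result for Cspg4 was not tested.

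**Figure D2:**
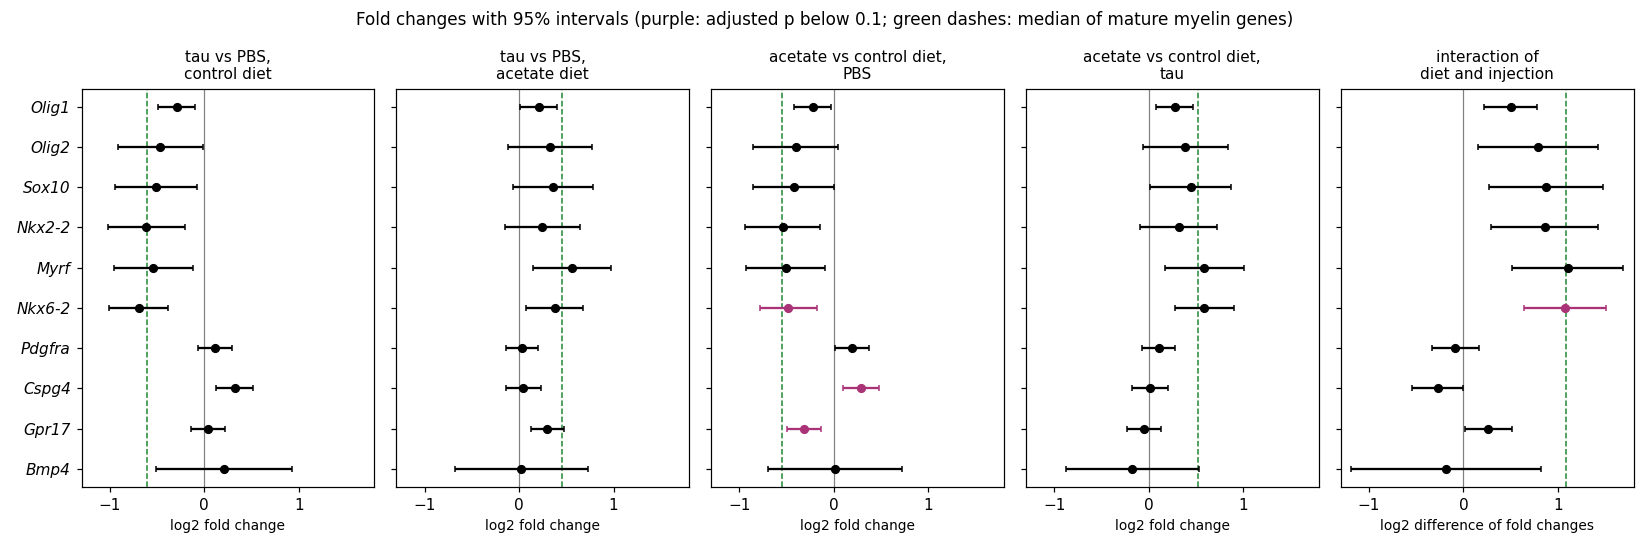
Log2 fold change of each gene (points) with its 95% interval in the 4 comparisons and the interaction, on 1 scale, with the median of 18 mature myelin genes as green dashes and genes past an adjusted p below 0.1 in purple. By sign, the 6 factors lay on the side of the myelin median in all 5 panels. Pdgfra and Cspg4 did so only in tau-acetate against PBS-acetate and against tau-control mice, and Bmp4 only in the former. Of the factors only Nkx6-2 was called, in acetate against control diet after PBS and in the interaction.

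On the acetate diet, tau-acetate against PBS-acetate gave log2 fold changes above 0 for all 10 genes, and none passed the threshold in edgeR or DESeq2, which 0.136% of genes passed in edgeR. Myrf at 0.56 (SE 0.18, adjusted p = 0.345) and Gpr17 at 0.30 (SE 0.08, adjusted p = 0.204) had groups that did not overlap, compared with 16.2% of all genes. The values of Nkx6-2 (0.38), Sox10 (0.36), Olig2 (0.33), Nkx2-2 (0.25) and Olig1 (0.21) were within overlapping groups. Pdgfra was at 0.03 (-0.14 to 0.20), Cspg4 at 0.05 (-0.14 to 0.23) and Bmp4 at 0.02 (-0.68 to 0.73). The unadjusted p was below 0.05 for Olig1, Myrf, Nkx6-2 and Gpr17, and for 10.3% of all genes. The median of mature myelin was 0.46, with 18 of 18 genes above 0, 10 of them at an unadjusted p below 0.05 and 0 past the threshold.

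In tau-injected mice, acetate against control diet gave the 6 factors fold changes of the opposite sign to those in PBS-injected mice. Log2 fold changes were 0.59 for Nkx6-2 (SE 0.15, adjusted p = 0.187), 0.59 for Myrf (SE 0.18, adjusted p = 0.306), 0.44 for Sox10, 0.39 for Olig2, 0.32 for Nkx2-2 and 0.28 for Olig1. None of the 10 passed the threshold in edgeR, beside 0.0611% of all genes, and 4 had an unadjusted p below 0.05 (Olig1, Sox10, Myrf and Nkx6-2), beside 10.9%. Groups did not overlap for Olig1, Myrf and Nkx6-2, and for 14.4% of all genes. Pdgfra was at 0.11 (-0.07 to 0.28), Cspg4 at 0.01 (-0.17 to 0.20), Gpr17 at -0.05 (-0.23 to 0.13) and Bmp4 at -0.17 (-0.87 to 0.53). Mature myelin had a median of 0.52, with 18 of 18 genes above 0, 13 of them at an unadjusted p below 0.05 and 0 past the threshold. DESeq2 called Myrf, the fit without a filter called Nkx6-2, and Sox10 and Nkx6-2 were called without tau-acetate replicate 3. In these runs the calls over all genes rose from 9 to 175, 56 and 66.

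The difference between these diet effects, the interaction of diet and injection, was tested directly. Nkx6-2 had a difference of 1.07 on the log2 scale (SE 0.21, adjusted p = 0.0435), and it was the only 1 of the 10 past the threshold, beside 1.56% of all genes. The call was lost without PBS-acetate replicate 2 (adjusted p = 0.146) and without tau-acetate replicate 1 (0.114). Differences of 1.10 for Myrf (adjusted p = 0.116), 0.87 for Sox10 (0.204), 0.86 for Nkx2-2 (0.158), 0.79 for Olig2 (0.271) and 0.50 for Olig1 (0.105) did not pass. With tau-acetate replicate 3 left out all 6 factors were called, and DESeq2 called Olig1, Olig2, Sox10, Myrf and Nkx6-2, while the calls over all genes rose from 230 to 442 and 434. Pdgfra was at -0.09 (-0.34 to 0.16), Cspg4 at -0.27 (adjusted p = 0.370), Gpr17 at 0.26 (0.361) and Bmp4 at -0.18 (0.930). An unadjusted p below 0.05 was reached by the 6 factors, by Gpr17 above 0 and by Cspg4 below 0, beside 13% of all genes. The median of the mature myelin genes was 1.09, and 3 of 18 passed. Region markers differed here too: 5 of 5 thalamus markers were above 0 (median 1.22), 4 of 5 CA1 markers below 0 (median -0.55, 3 at an unadjusted p below 0.05) and 4 of 4 CA3 markers above 0 (median 0.47), with 0 past the threshold, and 1 of 5 choroid plexus markers passed (Folr1, 2.92, adjusted p = 0.0755). Their part in the interaction was not tested.

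Mouse by mouse, the 6 factors followed the mature myelin score. Over the 12 mice Pearson's r was 0.976 for Sox10, 0.965 for Myrf, 0.949 for Olig1, 0.933 for Nkx6-2, 0.842 for Nkx2-2 and 0.838 for Olig2 (permutation test, adjusted p over the 10 genes 3.333e-05 for the first 3, whose raw p of 1e-05 is the smallest the permutations can give, then 0.00015, 0.00145 and 0.00145). Spearman's rho was 0.965, 0.958, 0.965, 0.909, 0.657 and 0.853 in the same order. Leaving out the 2 mice farthest from the median score, tau-acetate replicate 1 and PBS-control replicate 1, left r between 0.750 for Nkx2-2 and 0.955 for Sox10. As deviations from the group means, so that group differences play no part, r was 0.964 for Sox10, 0.954 for Myrf, 0.906 for Olig1 and 0.850 for Nkx6-2, with exact within-group permutation adjusted p-values of 0.00772, 0.00772, 0.00772 and 0.0347. Within groups Olig2 (r = 0.683, exact permutation adjusted p = 0.199) and Nkx2-2 (0.649, 0.232) did not pass. The points of a mouse share its library and dissection. The score also fell from replicate 1 to replicate 3 in every group but tau-control, and the part of replicate number in these r values was not tested. The share of all genes that follow this score was not computed, so these r values stand without it. With the score as a covariate, calls over all genes fell from 1303 to 2 (acetate, PBS-injected mice) and from 230 to 4 (interaction).

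The precursor genes showed neither a following nor an opposing relation that passed the test. Pdgfra had r = -0.273 (permutation test, adjusted p = 0.385, rho = -0.224), Cspg4 r = -0.303 (0.376, rho = -0.0909), Bmp4 r = -0.340 (0.346, rho = -0.273) and Gpr17 r = 0.422 (0.248, rho = 0.336). Without the same 2 mice these were -0.365, -0.279, 0.118 and 0.461, and within groups -0.173, 0.462, -0.420 and 0.446, none past the threshold. Thus the sign for Cspg4 and for Bmp4 changed with the mice or the grouping. Cspg4 and Pdgfra had r = 0.662 with each other (rho = 0.636, permutation p = 0.0188, adjusted p = 0.169 over 9 genes, 0.639 without the 2 mice and 0.411 within groups), a relation examined after the first was seen.

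**Figure D3:**
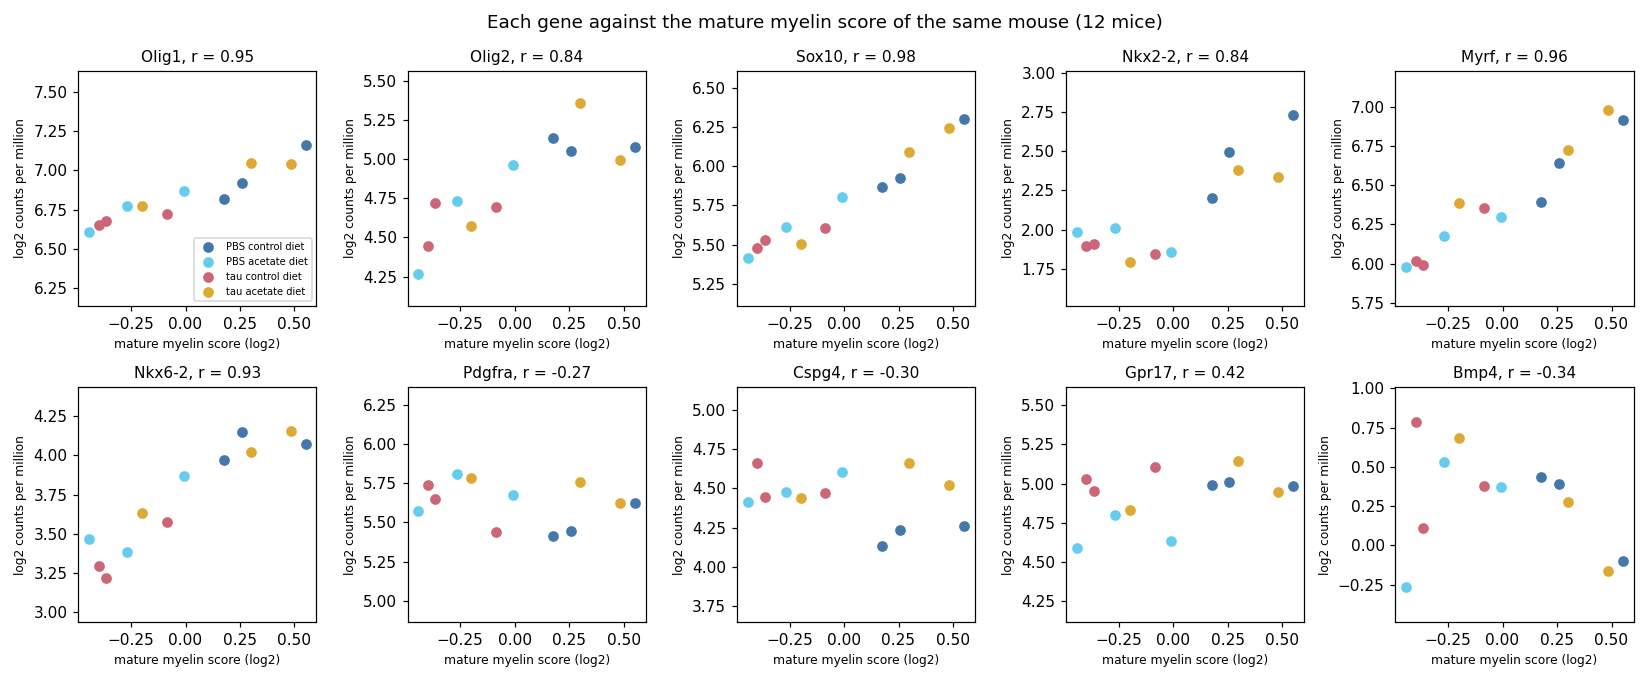
Log2 CPM of each gene (vertical) against the mature myelin score of the same mouse (horizontal), 1 point per mouse, coloured by group. The r in each title was computed over the 12 mice with a prior count of 2, and runs from 0.838 to 0.976 for the 6 factors and from -0.340 to 0.422 for the other 4 genes.

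The ratio of a precursor gene to Sox10 in the same library does not depend on library size, although Sox10 is made at every stage and so stands for none of them. Pdgfra to Sox10 was 0.625, 0.719 and 0.730 in PBS-control, 0.914, 1.15 and 1.11 in PBS-acetate, 1.08, 1.20 and 0.890 in tau-control, and 0.652, 0.793 and 1.22 in tau-acetate mice. The PBS-control mice were under all mice of the 2 middle groups, and the ratio was 1.53-fold higher in each. For Cspg4 the ratio averaged 0.285 ± 0.036 (SD, n = 3) in PBS-control, 0.463 ± 0.033 in PBS-acetate, 0.498 ± 0.060 in tau-control and 0.385 ± 0.088 in tau-acetate. Gpr17 to Sox10 averaged 0.492 ± 0.078, 0.526 ± 0.070, 0.704 ± 0.031 and 0.519 ± 0.111 in these groups, and only the tau-control mice were above the PBS-control mice without overlap. Of 12 such comparisons, 6 had groups that did not overlap and an exact two-sided permutation p of 0.1, the smallest that 3 mice against 3 allow (0.2 after adjustment). The ratio was chosen with the levels known. Against PBS-control mice, Sox10 itself had log2 fold changes of -0.51 in tau-control and -0.43 in PBS-acetate mice. A gene at a steady level would therefore give a higher ratio in these groups. The share of all genes whose ratio to Sox10 did not overlap was not computed.

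**Figure D4:**
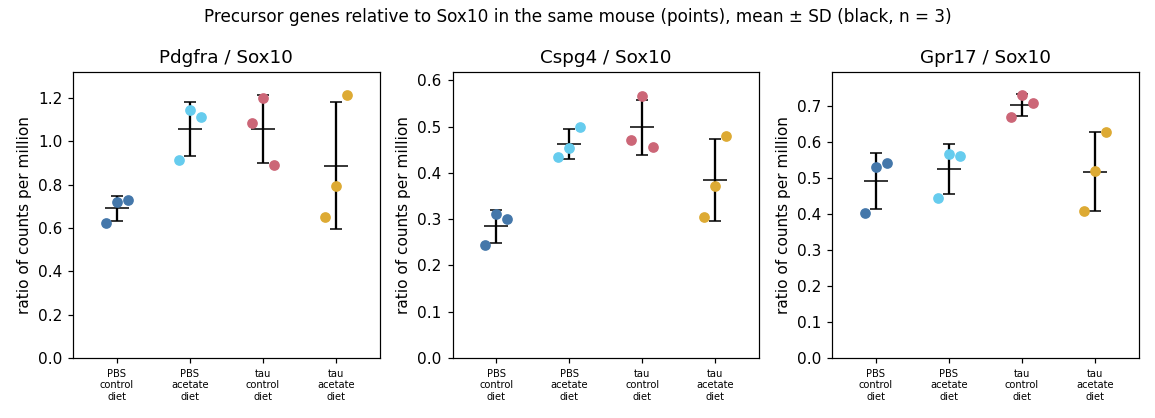
Ratio of Pdgfra, Cspg4 and Gpr17 to Sox10 in CPM for each mouse (points), with mean and SD in black and axes from 0. PBS-control mice had the lowest mean for all 3 ratios, and tau-control mice were above them without overlap.

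Other genes of the precursor stage did not pass the edgeR threshold, which Gpr17 and Cspg4 had passed in PBS-acetate against PBS-control mice. Of 9 further precursor genes (Vcan, Lhfpl3, C1ql1, Matn4, Tnr, Pcdh15, Neu4, Cacng4 and Ptprz1), 0 passed the threshold in any of the 5 edgeR tests, 1 had an unadjusted p below 0.05 in tau against PBS on the control diet and 1 in acetate against control diet after tau, and their medians were 0.09, 0.08, 0.06, 0.03 and -0.04 in the order tau on control diet, tau on acetate diet, acetate in PBS mice, acetate in tau mice and interaction. Their summed level was 407 to 451 CPM in PBS-control, 430 to 472 in PBS-acetate, 446 to 492 in tau-control and 473 to 500.3 in tau-acetate mice. The members with the widest log2 fold changes were Tnr (0.25), C1ql1 (0.20), Matn4 (0.30), C1ql1 (0.32) and Matn4 (-0.29) in that order.

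Genes of newly formed oligodendrocytes were mixed. Of 7, Bcas1, which marks myelinating cells at an early stage, fell in PBS-acetate mice (-0.65, SE 0.19, adjusted p = 0.0930), and Enpp6 passed in the interaction (1.40, SE 0.33, adjusted p = 0.0803). The list median was -0.03, 0.09, -0.26, 0.01 and 0.13 in the same order of comparisons. Tcf7l2 had the widest change in 4 of the 5, as low as -1.68 in PBS-acetate mice (adjusted p = 0.243), where PBS-control mice were at 4.42, 27.7 and 7.86 CPM and PBS-acetate mice at 3.16, 4.74 and 4.15, so the value rests largely on PBS-control replicate 2. This gene is also made by thalamic neurons, and the same mouse had the highest thalamus sum, 275 CPM. Of 14 other regulators of the lineage, 13 were tested and 0 passed in any edgeR test, with 5, 1, 1, 4 and 2 genes at an unadjusted p below 0.05 in the same order. Their medians lay between -0.03 and 0.09, with the widest values for Hes5 (0.47) and Zfp536 (0.24) under tau, Zfp488 (-0.37) and Sox5 (-0.45) under acetate, and Id4 (0.36) in the interaction.

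For the signals that act on precursors, 1 of 5 genes of PDGF signalling passed: Pdgfrb, the receptor of mural cells, rose in PBS-acetate mice (0.34, SE 0.10, adjusted p = 0.0706). Pdgfa, the main ligand of Pdgfra, did not pass in any test. Of 16 genes of BMP signalling, Chrd, a secreted inhibitor of BMPs, rose in PBS-acetate mice (0.37, SE 0.09, adjusted p = 0.0366), and 0 passed elsewhere. Only 2 of 5 proliferation genes were abundant enough to be tested, Mki67 and Top2a, and neither passed. Summed over the 5, these genes reached 1.72 to 2.85 CPM, so a change in dividing cells was not detectable at this depth.

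Over the 14732 other genes tested, those with a pattern over the 12 mice most like each member were ranked by Pearson's r, as a description. For Sox10 these were Trf (0.983), Cnp (0.980) and Wipf1 (0.980), for Olig1 Clic4 (0.985), Mag (0.971) and Unc5b (0.968), and for Myrf Ttyh2 (0.977), Unc5b (0.975) and Slc44a1 (0.975). Nkx6-2 was most like Litaf (0.948), Mbp (0.942) and Bcas1 (0.941), Nkx2-2 like Fth1 (0.911), Nipal4 (0.909) and Nkd1 (0.906), and Olig2 like Adi1 (0.925), Bfsp2 (0.923) and Car2 (0.910). Myelin genes or transcripts that oligodendrocytes carry in quantity, such as Trf and Car2, thus stood near several of the factors. The precursor genes had other neighbours: Snd1 (0.939), Slc25a23 (0.929) and Foxp1 (0.918) for Pdgfra, Btg3 (0.946), Cdh13 (0.929) and Polr2a (0.928) for Cspg4, Pik3r4 (0.928), Dnajb1 (0.911) and Ift80 (0.894) for Gpr17, and Tmem53 (0.871), Btbd11 (0.869) and Htr5b (0.858) for Bmp4. The highest r of any of the 18 mature myelin genes was -0.100 with Pdgfra, -0.169 with Cspg4, -0.204 with Bmp4 and 0.644 with Gpr17.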

How the data were processed

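The authors aligned reads to GRCm38 with STAR (2.5.2a in the submitters' processing notes), counted exonic reads on the reverse strand with HTSeq 0.9.1 and deposited raw counts per gene without normalization. All that follows was computed here in R 4.3.3 and Python 3.11.15. Groups came from the sample titles. Genes passing filterByExpr (minimum count 10, minimum total 15) were scaled by TMM and fitted with edgeR 4.0.16 (robust quasi-likelihood F test, 1 mean per group, 12 mice, 8 residual degrees of freedom). Benjamini-Hochberg adjustment ran over 14742 genes, with calls at an adjusted p below 0.1. The common biological coefficient of variation was 7.25%. Standard errors came from the F statistic. CPM are after TMM, and log2 CPM used a prior count of 2. Correlations were tested with 100000 permutations, or all 1296 within groups. DESeq2 1.42.0 was the alternative tool. The scripts were first tested on simulated counts in which 200 genes changed.

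The members and gene lists were chosen with earlier results of these data known. Named genes were all 10 members, list genes past the threshold (at most 3 per list) or otherwise the gene with the widest change, and the 3 genes most like each member. Coordinates and exon lengths come from GENCODE M21, promoters from RefSeq (GRCm38.p6). Alternatives were another scaling (DESeq2's size factors), another tool (DESeq2), no filter, the compared mice alone, a stricter threshold of 0.05, a block for replicate number, the mature myelin score as a covariate, each mouse left out, and, for correlations, Spearman's rho and a summed myelin score. Some genes of the lists are not reported here by name.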

Additional observations from a re-analysis of the deposited data

Results flagged for a closer look

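The effect of acetate on Nkx6-2 was different after tau than after PBS, by 1.07 on the log2 scale (edgeR interaction, adjusted p = 0.0435), which is a tested difference between groups. The gene fell with acetate after PBS (-0.48, adjusted p = 0.0667) and was at 0.59 after tau (adjusted p = 0.187), by the same test. The interaction call was lost without PBS-acetate replicate 2, without tau-acetate replicate 1 and with the mature myelin score as a covariate. The other factors had differences in the same direction (0.50 to 1.10) that did not pass, beside a median of 1.09 for mature myelin.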

How the results depend on the processing

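Over all genes tested, deviations from group means showed little relation between same-numbered mice: 2 of 18 such pairs correlated above 0.1 (-0.105 to 0.144). The mature myelin score nonetheless fell from replicate 1 to replicate 3 in every group but tau-control. Whether the numbers stand for a shared order or batch was not tested. In acetate against control diet among PBS-injected mice, the 3 calls became 1 at an adjusted p below 0.05, 5 in the compared mice alone, 5 with the replicate block, 0 with the mature myelin score as a covariate and 0 to 6 with a mouse left out. Calls over all genes went from 1303 to 1537 in the compared mice alone and 1224 with the block. They went to 2 with the covariate and 15 to 1425 with a mouse left out. For the same diets in tau-injected mice, 0 became 1 with DESeq2, 1 without the filter and 0 to 2 with a mouse left out. Calls over all genes there went from 9 to 175, 56 and 1 to 66 in the same order. The interaction's 1 call became 5 with DESeq2, 4 with the replicate block, 0 with the covariate and 0 to 6 with a mouse left out (3 without PBS-control replicate 3, 2 without tau-control replicate 3 and 6 without tau-acetate replicate 3), while calls over all genes went from 230 to 434, 349, 4 and 8 to 442 in the same order. On the control diet, tau against PBS went from 0 to 1 with DESeq2, 2 in the compared mice alone and 0 to 1 with a mouse left out. Calls over all genes there went from 2 to 86, 35 and 0 to 16 in the same order. The count for tau on the acetate diet was 0 in every alternative run, and the count of 6 factors following myelin stayed within 1.5 times. For inverse relations, 1 gene was inversely related to myelin, in place of 0, without PBS-acetate replicate 3 (range 0 to 1). Reversed values were Bmp4 in tau against PBS on the control diet (0.21 to -0.23 with the covariate, -0.00122 to 0.35 with a mouse left out) and, with the covariate, the interactions of Olig1 (-0.0355) and Sox10 (-0.20). The cause was not tested, and the covariate is built from myelin genes that move with these factors. Depth limits Bmp4 and the proliferation genes.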
